A study of Mus musculus with 15 samples.

Results

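The accessible chromatin of 10 genes of blood clotting was followed in hepatocytes, reprogrammed hepatocytes and biliary cells of mouse liver: the fibrinogen chain genes Fga, Fgb and Fgg, the coagulation factor genes F2, F5, F7, F9 and F10, and Plg and Proc. The genes were chosen by name. A region of the deposited table was given to a gene when its midpoint lay in the RefSeq gene body or was nearest to it within 50 kb. In this way the 10 genes, of 16714 with at least 1 region, held 42 of the 93217 regions. The study measured ATAC-seq, in which a transposase cuts and tags open chromatin, in 15 libraries that form 5 groups with 3 libraries each. The groups were reprogrammed hepatocytes, biliary cells and hepatocytes labelled DDC, and biliary cells and hepatocytes labelled untreated. In this field DDC stands for diethoxycarbonyl-dihydrocollidine, a feed additive that injures the bile ducts. Cells were sorted straight from liver and not grown in culture. The sources used here do not give strain, age, dose, time or sort markers, nor what set reprogrammed cells apart from hepatocytes in the sort.

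Hepatocytes make most of the clotting proteins of plasma, and biliary cells line the bile ducts. Prothrombin (F2) is cut to thrombin by active factor X (F10) with its cofactor factor V (F5), after active factor VII (F7) or factor IX (F9) has activated factor X. Thrombin then turns fibrinogen, built from the chains of Fga, Fgb and Fgg, into fibrin. Plasminogen (Plg) is the precursor of the enzyme that dissolves fibrin, and protein C (Proc) is the precursor of an anticoagulant protease that inactivates factor V.

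Values are nuclear RPM, the reads of a gene's regions per 1e6 reads outside the mitochondrial genome, and they measure accessibility, not expression. Depth differed between groups, with 4756891 to 9829886 nuclear reads per library in DDC reprogrammed cells, 5151190 to 10395918 in DDC biliary cells and 1191409 to 2342643 in DDC hepatocytes. It was 2439831 to 4389653 in untreated biliary cells and 201705 to 605309 in untreated hepatocytes, where 1 read was worth 1.65 to 4.96 nuclear RPM. Mitochondrial reads made up 34.1 ± 7.24% of reads in DDC hepatocytes and 76.6 ± 11.7% in untreated hepatocytes (mean ± SD, n = 3 each), and at most 21.9% in any library of the other groups. The summed level of 10 hepatocyte marker genes was 629 to 1304 nuclear RPM in DDC reprogrammed cells, 414 to 876 in DDC biliary cells and 3414 to 5194 in DDC hepatocytes. It was 607 to 1518 in untreated biliary cells and 4977 to 7594 in untreated hepatocytes. The sum of 10 biliary markers was 1016 to 1222 in DDC reprogrammed cells, 1577 to 1786 in DDC biliary cells and 448 to 529 in DDC hepatocytes, and 1377 to 1493 in untreated biliary cells and 429.5 to 635 in untreated hepatocytes. No marker of either list was at 0 in any library. Untreated biliary library 1 stood apart, with a hepatocyte marker sum of 1518 against 633 and 607 in the other libraries of its group. No label says that libraries of a group came from separate animals, so p-values reflect the spread among libraries, which may be technical. In bulk samples fewer cells of a type and less accessibility per cell cannot be told apart.

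The fibrinogen genes lie together on chromosome 3, Fgg and Fga on the plus strand and Fgb on the minus strand, so that Fga and Fgb point at each other. RefSeq promoter windows, from 250 bases before to 50 bases after the start site (build GRCm38.p6), were found for 8 of the 10 genes, all but Plg and Proc. They are shown for the fibrinogen genes, whose start-site and gene-body regions differed in the data, and for F7 and F10, neighbours on chromosome 8 with the largest differences in reprogrammed cells. The windows are chr3:83007474-83007773 (plus strand) for Fgg, chr3:83025903-83026202 (plus) for Fga, chr3:83049814-83050113 (minus) for Fgb, chr8:13025784-13026083 (plus) for F7 and chr8:13037058-13037357 (plus) for F10. Capitals mark matches of the motifs named after the sequences.
Fgg: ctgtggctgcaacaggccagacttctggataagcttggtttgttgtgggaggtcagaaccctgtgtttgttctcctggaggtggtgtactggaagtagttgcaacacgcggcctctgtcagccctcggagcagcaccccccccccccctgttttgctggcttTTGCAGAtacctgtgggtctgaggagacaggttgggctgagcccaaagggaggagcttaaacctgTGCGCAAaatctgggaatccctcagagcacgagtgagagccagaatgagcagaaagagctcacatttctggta
Fga: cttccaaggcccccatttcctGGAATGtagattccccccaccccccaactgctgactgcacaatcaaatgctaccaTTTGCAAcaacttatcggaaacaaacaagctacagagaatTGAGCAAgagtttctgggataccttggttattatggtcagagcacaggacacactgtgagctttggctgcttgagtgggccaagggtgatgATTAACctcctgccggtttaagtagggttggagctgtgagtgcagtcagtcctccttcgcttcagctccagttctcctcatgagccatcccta
Fgb: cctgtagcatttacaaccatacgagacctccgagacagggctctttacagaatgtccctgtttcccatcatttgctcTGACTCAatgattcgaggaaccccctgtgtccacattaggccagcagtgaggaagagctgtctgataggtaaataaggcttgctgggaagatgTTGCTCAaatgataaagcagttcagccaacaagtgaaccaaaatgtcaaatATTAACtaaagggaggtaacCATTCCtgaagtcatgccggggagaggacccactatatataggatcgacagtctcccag
F7: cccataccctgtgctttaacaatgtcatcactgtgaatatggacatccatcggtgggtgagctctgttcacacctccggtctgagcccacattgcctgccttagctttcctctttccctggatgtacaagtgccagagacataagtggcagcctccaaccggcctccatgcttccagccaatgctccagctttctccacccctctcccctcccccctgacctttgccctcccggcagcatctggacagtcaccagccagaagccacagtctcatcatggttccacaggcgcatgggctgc
F10: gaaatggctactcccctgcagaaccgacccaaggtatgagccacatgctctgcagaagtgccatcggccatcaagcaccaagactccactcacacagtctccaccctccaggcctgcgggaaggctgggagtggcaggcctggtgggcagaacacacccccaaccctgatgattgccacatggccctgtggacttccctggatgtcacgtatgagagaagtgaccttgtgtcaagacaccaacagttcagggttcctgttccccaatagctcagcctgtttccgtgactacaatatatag

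A set of 6 short motifs of liver and stress-related factors was searched on both strands. The HNF1 motif GTTAAT was found in 3 of the 8 windows (F2, Fga and Fgb) and in 7.10% of 32851 promoter windows of the same length. It lay at -43 in Fga and at -29 in Fgb, counted from the start site at 0, on the strand opposite to the gene in both. The C/EBP motif TTGCNNA was in 4 windows (Fgg, Fga, Fgb and F9) and in 37.1% of all windows. The AP-1 motif TGANTCA was in 2 (F2 and Fgb) and in 7.81% of all. The TEAD motif GGAATG was in 4 (F5, Fga, Fgb and F9) and in 14.7% of all. The HNF4 letters CAAAGTC (4.44% of all windows) and the FOX letters TGTTTAC (3.65%) were in none of the 8, and F7 and F10 held none of the motifs. Matches did not overlap each other in the printed windows. A match describes letters, not binding.

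Clotting genes were less accessible in DDC reprogrammed cells than in DDC hepatocytes. The level was lower at 9 of the 10 genes, all but Proc, by 2.14-fold (Plg) to 5.98-fold (F10), and 0 were higher. Among all 16372 genes tested, 6.43% were called lower and 8.01% higher in this comparison. All 9 also had every reprogrammed library below every DDC hepatocyte library, as had 16.1% of all genes (25.4% had them above). The median log2 difference was -1.53 for the 10 genes and 0.12 for all genes. Calls are at an adjusted p under 0.05 from limma on log2(nuclear RPM + 1), a scale that understates the change of low genes.

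At the fibrinogen chain genes the log2 differences ran from -1.29 to -1.49. Fga, which encodes the alpha chain, had 28.7, 22.3 and 31.5 nuclear RPM in DDC reprogrammed cells, against 73.8, 63.7 and 67.1 in DDC hepatocytes. Fgb, for the beta chain, had 78.1, 93.5 and 132 nuclear RPM in reprogrammed cells, against 272, 259 and 314 in DDC hepatocytes. Fgg, for the gamma chain, had 88.1, 89.8 and 97.8 nuclear RPM in reprogrammed cells, against 258, 276 and 248 in DDC hepatocytes. The libraries of the groups did not overlap at any of the chain genes. The log2 difference was -1.29 ± 0.33 for Fga (SE, n = 3 per group, limma adjusted p = 0.0158), -1.49 ± 0.21 for Fgb (adjusted p = 0.000394) and -1.49 ± 0.23 for Fgg (adjusted p = 0.000875). The Fgb sum includes a wide region that also reaches the neighbouring gene Plrg1, and from gene-body regions alone Fgb was -2.95. In the same way it was -3.74 rather than -2.01 between DDC biliary cells and DDC hepatocytes, and -4.47 rather than -2.51 between untreated biliary cells and untreated hepatocytes.

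At the factor genes the log2 differences ran from -1.56 to -2.58. F2 had 20.1, 11.2 and 23.5 nuclear RPM in DDC reprogrammed cells, against 63.2, 52.7 and 46.2 in DDC hepatocytes. F5 had 21.9, 17.5 and 36.6 nuclear RPM in reprogrammed cells, against 102, 112 and 86.5 in DDC hepatocytes. Every reprogrammed value of both lay under every hepatocyte value. F7, whose protein starts clotting together with tissue factor, had 5.48, 3.97 and 9.67 nuclear RPM in reprogrammed cells, against 42.3, 39.3 and 36.1 in DDC hepatocytes. F10 had 17.9, 16.5 and 50.7 nuclear RPM in reprogrammed cells, against 148, 151 and 160.3 in DDC hepatocytes. Reprogrammed library 3 was the highest of its group at F2, F5, F7 and F10, and also at Fga, Fgb, Fgg and Proc. Its hepatocyte marker sum was 1304 nuclear RPM, against 792 and 629 in the other reprogrammed libraries, and the part of this in the result was not tested. F9, the X-linked gene that is defective in haemophilia B, had 5.70, 4.98 and 5.05 nuclear RPM in reprogrammed cells, against 18.4, 31.1 and 18.5 in DDC hepatocytes, without overlap. The log2 difference was -1.56 ± 0.39 for F2 (limma adjusted p = 0.014), -2.0 ± 0.52 for F5 (adjusted p = 0.0171) and -2.52 ± 0.48 for F7 (adjusted p = 0.00311). It was -1.88 ± 0.57 for F9 (adjusted p = 0.0369) and -2.58 ± 0.71 for F10 (adjusted p = 0.0231).

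Plg and Proc, whose products dissolve clots or limit clotting, parted from each other. Plg had 61.5, 38.5 and 59.7 nuclear RPM in DDC reprogrammed cells, against 120.0, 129.8 and 91.5 in DDC hepatocytes, without overlap, and fell by 1.10 ± 0.29 on the log2 scale (limma adjusted p = 0.018). Proc had 95.7, 86.1 and 112 nuclear RPM in reprogrammed cells, against 99.0, 95.3 and 78.9 in DDC hepatocytes. The Proc values overlapped, and the log2 difference was 0.10 ± 0.16 (adjusted p = 0.757, 95% interval -0.21 to 0.41). That interval does not hold the difference found at any of the other 9 genes. The Proc sum includes a region 8375 bases outside the gene body that was called higher. From gene-body regions alone Proc was -0.21.

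The calls depended in part on single libraries. Fgb, Fgg and F7 were called without any 1 of the 6 libraries compared. The count of 9 became 5 without DDC reprogrammed library 1, 3 without library 2 and 8 without library 3. It became 4 without DDC hepatocyte library 1, 5 without library 2 and 7 without library 3. Each of these fits has 1 library fewer. The shares of all genes called in them are not given here, so the lost calls cannot be tied to the clotting genes. F9 lost its call in each of these fits (largest adjusted p = 0.143), with log2 differences from -2.0 to -1.64. F10 was called only without reprogrammed library 3 among them, with log2 differences from -3.08 to -2.30. All 9 genes were called lower by edgeR on the recovered reads, with adjusted p from 4.48e-07 (Fgb) to 0.000537 (F9), where 15.3% of all genes were called lower and 15% higher.

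**Figure D1:**
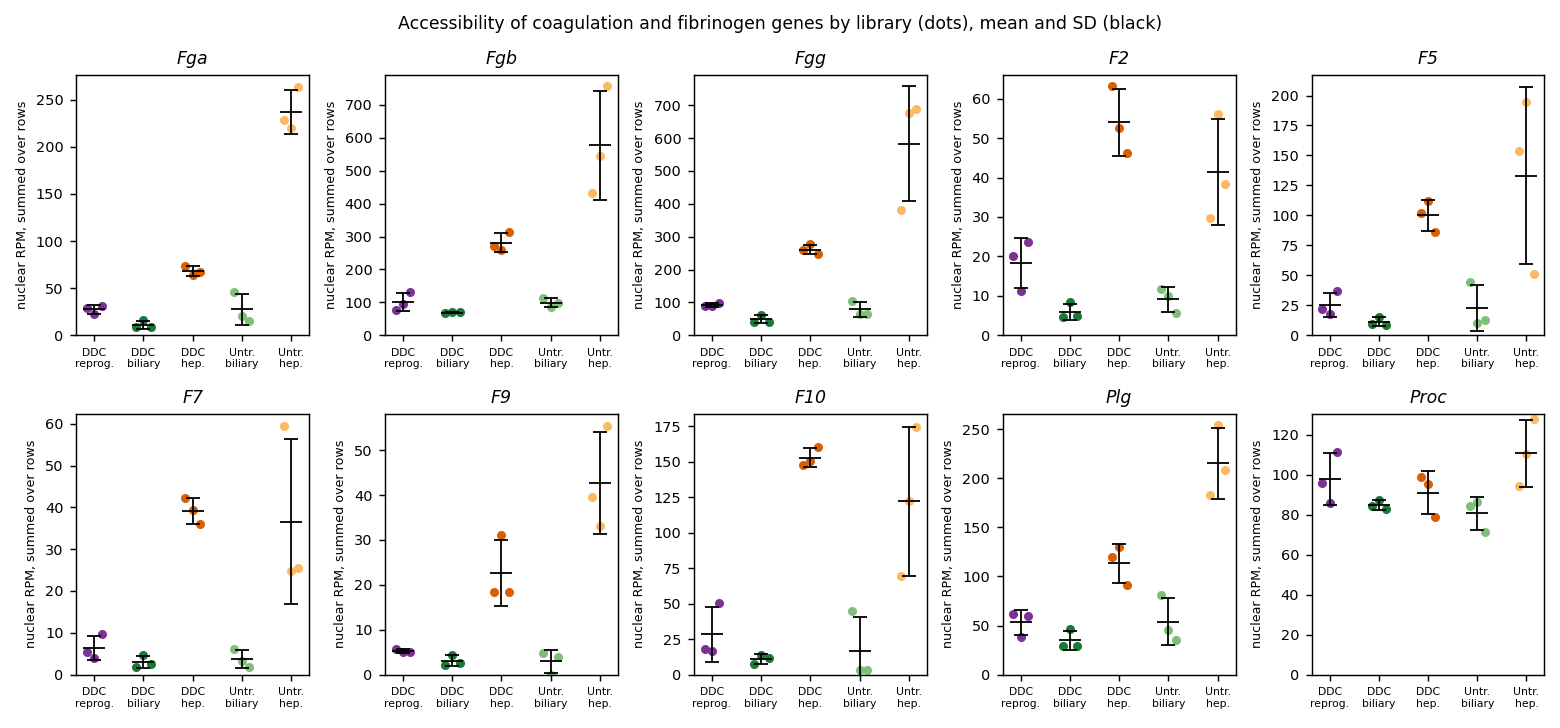
Summed nuclear RPM (vertical axis, from 0) of each of the 10 genes in the 3 libraries (dots) of each of the 5 groups (horizontal axis), with mean and SD in black. The DDC reprogrammed libraries lie under all DDC hepatocyte libraries at 9 genes, and at Proc the DDC groups overlap.

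Compared with DDC biliary cells, reprogrammed cells had the higher mean at all 10 genes, but limma called none of them. Fga had 28.7, 22.3 and 31.5 nuclear RPM in reprogrammed cells, against 8.46, 15.7 and 9.19 in DDC biliary cells. Fgg had 88.1, 89.8 and 97.8 nuclear RPM in reprogrammed cells, against 41.4, 61.9 and 41.7 in DDC biliary cells. F2 had 20.1, 11.2 and 23.5 nuclear RPM in reprogrammed cells, against 4.62, 8.35 and 4.98 in DDC biliary cells. The libraries did not overlap at these genes, and at 7 of the 10 every reprogrammed library was above every DDC biliary library, as at 13.9% of all genes (below at 10.5%). The exceptions were F7, Plg and Proc. The log2 difference was 1.27 ± 0.33 for Fga (limma adjusted p = 0.299), 0.94 ± 0.23 for Fgg (adjusted p = 0.283) and 1.44 ± 0.39 for F2 (adjusted p = 0.309). The median of the 10 genes was 0.91, against 0.05 for all genes, and 4 of the 10 had an unadjusted p under 0.05, as had 5.30% of all genes. Over the whole table limma called 0.0183% of genes higher and 0.00611% lower. The count test of edgeR called 3 of the 10 higher, Fga (adjusted p = 0.00654), Fgg (adjusted p = 0.00875) and F2 (adjusted p = 0.00421), where it called 1.04% of all genes higher and 1.90% lower. A limma fit of only the 6 libraries compared called 5 (also F5 and F10), where it called 2.85% of all genes higher and 4.09% lower.

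On the log2 scale reprogrammed cells were also set against the midpoint of DDC biliary cells and DDC hepatocytes. The difference from it ran from -0.82 ± 0.42 (F7) to 0.15 ± 0.14 (Proc), and at Fga it was -0.012 ± 0.28, with a 95% interval of -0.57 to 0.54. Of the 10 genes 9 were below the midpoint, and 7 with the deposited scaling, TMM factors or thinned reads. None was called by limma, and 1 had an unadjusted p under 0.05, Fgb (-0.49 ± 0.18, adjusted p = 0.444), where 7.90% of all genes had one. None was called by edgeR, which called 3.08% of all genes higher and 1.39% lower than the midpoint.

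**Figure D2:**
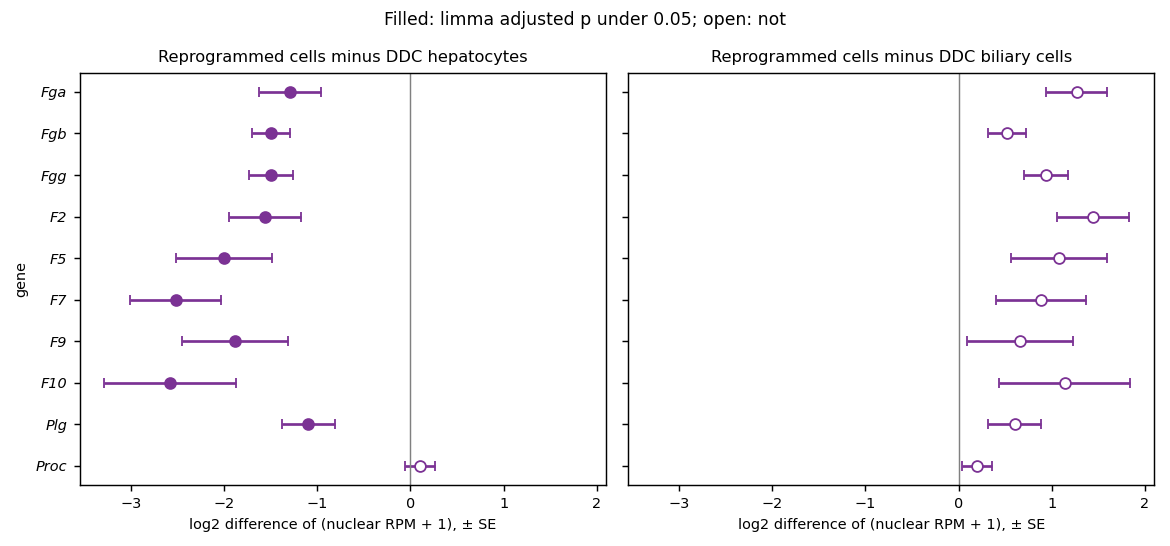
Log2 difference of nuclear RPM + 1 (horizontal axis, with SE bars) of DDC reprogrammed cells from DDC hepatocytes (left) and from DDC biliary cells (right) for each gene (vertical axis). Filled points passed the limma test at an adjusted p under 0.05, which were 9 genes on the left and 0 on the right.

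DDC biliary cells were lower than DDC hepatocytes at 9 of 10 genes, again all but Proc, where 11.7% of all genes were called lower and 12.8% higher. Fgb fell by 2.01 ± 0.21 on the log2 scale (limma adjusted p = 1.41e-05), and F7 by 3.40 ± 0.48 (adjusted p = 0.000143). F10 had 7.41, 13.8 and 11.9 nuclear RPM in DDC biliary cells, against 148, 151 and 160.3 in DDC hepatocytes, a log2 difference of -3.72 ± 0.71 (adjusted p = 0.00124). The libraries did not overlap at the 9 genes (23.4% of all genes had every DDC biliary library lower). Proc had 84.4, 87.6 and 82.7 nuclear RPM in DDC biliary cells, against 99.0, 95.3 and 78.9 in DDC hepatocytes, and differed by -0.094 ± 0.16 (adjusted p = 0.742). The count of 9 was the same without each of the 6 libraries. Of 40 regions tested 23 were lower and 0 higher, where 12.1% of all regions were lower and 16.4% higher.

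All 10 genes were lower in untreated biliary cells than in untreated hepatocytes, by limma and by edgeR. Of all genes limma called 13.4% lower and 25.7% higher, and edgeR 15.2% lower and 14.4% higher. Fga had 46.1, 20.5 and 15.5 nuclear RPM in untreated biliary cells, against 228, 219.7 and 264 in untreated hepatocytes. Fgg had 105, 64.8 and 65.8 nuclear RPM in untreated biliary cells, against 382, 677 and 689.8 in untreated hepatocytes. F10 had 44.6, 3.28 and 2.96 nuclear RPM in untreated biliary cells, against 69.4, 122 and 175 in untreated hepatocytes. Groups did not overlap at any of the 10 genes (14.5% of all genes had every untreated biliary library lower). Untreated biliary library 1, the one with the high hepatocyte marker sum, was the highest of its group at 9 genes, and the part of this in the result was not tested. F9 was at 0 reads in untreated biliary library 2, which allows up to 1.23 nuclear RPM by counting error alone, and at 4.91 and 3.87 in the other libraries. The log2 difference was -3.80 ± 0.57 for F9 (limma adjusted p = 0.000146, edgeR 1.7e-05), -2.05 ± 0.29 for Plg (9.09e-05, edgeR 1.64e-06) and -0.45 ± 0.16 for Proc (0.0351, edgeR 0.0331). The call of Proc held only without untreated hepatocyte library 1 and was lost without any other library of this comparison (largest adjusted p = 0.135). F10 was -4.80 without untreated biliary library 1, against -3.65 ± 0.71 with it. With the deposited scaling, mitochondrial reads in the total, Proc turned to 1.41 (limma adjusted p = 0.000201) and 5 genes were called lower, where 0.959% of all genes were called lower and 85.3% higher. Of 40 regions 22 were lower and 1 higher, where limma called 10.9% of all regions lower and 22.1% higher. The edgeR test also called 17 and 1 of them, where it called 7.62% of all regions lower and 20.9% higher.

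In DDC hepatocytes Fga, Fgb, Fgg and Plg were lower than in untreated hepatocytes and none of the 10 was higher, where 3.92% of all genes were called lower and 9.66% higher. The same 4 were called by edgeR, with 2.14% of all genes lower and 2.85% higher. Fga had 73.8, 63.7 and 67.1 nuclear RPM in DDC hepatocytes, against 228, 219.7 and 264 in untreated hepatocytes. Fgb had 272, 259 and 314 nuclear RPM in DDC hepatocytes, against 431, 544 and 758 in untreated hepatocytes. Groups did not overlap at the fibrinogen genes, Plg or F9, that is at 5 of the 10, as at 7.26% of all genes. Plg had 120.0, 129.8 and 91.5 nuclear RPM in DDC hepatocytes, against 183, 254 and 209 in untreated hepatocytes. The log2 difference was -1.78 ± 0.33 for Fga (limma adjusted p = 0.0034, edgeR 0.000773) and -1.0 ± 0.21 for Fgb (0.00641, edgeR 0.00224). It was -1.11 ± 0.23 for Fgg (limma adjusted p = 0.00711, edgeR 0.00138) and -0.92 ± 0.29 for Plg (0.0448, edgeR 0.0364). Without 1 library Plg was called only when untreated hepatocyte library 1 was left out, with log2 differences from -1.03 to -0.77. F9 was at -0.90 ± 0.57 (adjusted p = 0.29), F5 at -0.21 ± 0.52 (0.809), F7 at 0.21 ± 0.48 (0.791), F2 at 0.41 ± 0.39 (0.486) and F10 at 0.42 ± 0.71 (0.714).

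Macrophage marker sums were 133 to 185 nuclear RPM in DDC hepatocytes, against 74.3 to 115 in untreated hepatocytes, without overlap, with 1 of the 3 genes tested called higher. Of 10 hepatocyte markers 0 were called, and of 10 biliary markers 3 were lower. The part of these in the result was not tested. The scaling changed this comparison. With the deposited scaling 0 genes were lower and 5 were higher (F2, F5, F7, F10 and Proc), for example F10 by 1.97 (limma adjusted p = 0.00859). Under it 84.1% of all genes were called higher and 0.116% lower, and the median of all genes was 1.53, against 0.21 with nuclear RPM. With TMM factors Fga was lower and F2 higher, where 0.733% of all genes were lower and 46.9% higher (median 0.78). The 5 genes higher as deposited and the 1 with TMM were smaller shares of the 10 than of all genes. With only the 6 libraries compared, limma called none of the 10 and 0 genes of the whole table, while 2287 genes had an unadjusted p under 0.05 and edgeR on all libraries made the calls given above. Without the region that reaches Plrg1, Fgb was at -1.10 (adjusted p = 0.174).

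A ratio within a library does not depend on the scaling. Reads at the fibrinogen genes per read at the factor genes were 1.62, 1.55 and 1.81 in DDC hepatocytes, against 2.96, 3.34 and 4.96 in untreated hepatocytes, without overlap. The ratio was 2.75, 3.8 and 2.09 in DDC reprogrammed cells, 4.59, 3.14 and 3.93 in DDC biliary cells and 2.37, 6.4 and 6.53 in untreated biliary cells, so that all 3 DDC hepatocyte libraries were the lowest of the 15. The Fgb reads include the region that reaches Plrg1. Without it, an alternative chosen after seeing the data, the ratio was 1.37, 1.30 and 1.56 in DDC hepatocytes, against 2.49, 3.0 and 4.57 in untreated hepatocytes, still without overlap. It was then 1.92, 2.33 and 1.41 in DDC reprogrammed cells, which overlapped DDC hepatocytes, 2.34, 1.99 and 2.13 in DDC biliary cells and 1.73, 3.42 and 3.71 in untreated biliary cells. With all regions the untreated hepatocyte ratios rest on 210, 872 and 402 fibrinogen reads and 71, 261 and 81 factor reads. A ratio shows unequal change and not which of the gene groups changed.

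**Figure D3:**
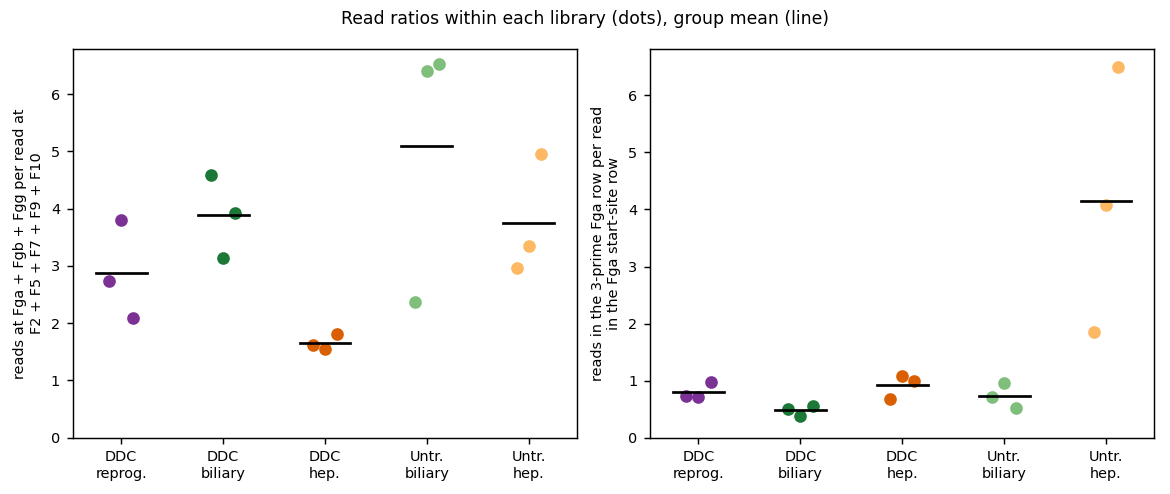
Read ratios in each library (dots) of the 5 groups (horizontal axis), with the group mean as a line: fibrinogen reads per factor read (left) and reads of the downstream Fga region per read of the Fga start-site region (right). DDC hepatocytes lie between 1.55 and 1.81 on the left and between 0.67 and 1.08 on the right, under all untreated hepatocyte libraries in both. The start-site region on the right was singled out after its values were seen.

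Between DDC and untreated biliary cells limma called none of the 10 genes, with 1.08% of all genes lower and 2.17% higher. Fga had 8.46, 15.7 and 9.19 nuclear RPM in DDC biliary cells, against 46.1, 20.5 and 15.5 in untreated biliary cells. Fgg had 41.4, 61.9 and 41.7 nuclear RPM in DDC biliary cells, against 105, 64.8 and 65.8 in untreated biliary cells. Fga overlapped, while Fgg and Fgb had every DDC biliary library lower, as had 21.3% of all genes (20.9% had every one higher). The log2 difference was -1.12 ± 0.33 for Fga (limma adjusted p = 0.0756) and -0.68 ± 0.23 for Fgg (adjusted p = 0.13). An unadjusted p under 0.05 was reached by 3 genes, and by 16.8% of all genes. The edgeR test called 2 lower, Fga (adjusted p = 0.00334) and Fgg (adjusted p = 0.0248), where it called 5.29% of all genes lower and 10.5% higher. Without untreated biliary library 1 Fga was -0.68. None of the 40 regions was called by limma, against 0.545% of all regions lower and 2.92% higher. The edgeR test called 9 lower, where it called 3.49% of all regions lower and 9.82% higher.

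The DDC effect in hepatocytes was set against that in biliary cells. Their difference was called at none of the 10 genes by limma or edgeR, and none had an unadjusted p under 0.05 by limma, as 19.5% of all genes had, where 1.04% of all genes were called lower and 1.76% higher. At Fga it was -0.66 ± 0.46 (limma adjusted p = 0.451), and 0.78 with the deposited scaling. None of the regions was called by limma (0.554% of all regions lower, 1.80% higher), and edgeR called 1 higher, where it called 4.67% of all regions higher and 0.951% lower.

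Of the 42 regions 40 passed the filter on low values. In reprogrammed cells against DDC hepatocytes 14 were lower and 1 higher, where limma called 6.06% of all regions lower and 8.14% higher. All 15 were also called by edgeR, which called 13.4% of all regions lower and 18.4% higher. The region over the Fgg body (chr3:83006803-83017522, mm10, start site included) fell by 1.85 ± 0.30 on the log2 scale (limma adjusted p = 0.00258). The region over much of the Fgb body and its downstream flank (chr3:83038618-83047474) had 19.3, 13.7 and 47.5 nuclear RPM in reprogrammed cells, against 180.1, 161 and 227 in DDC hepatocytes, and fell by 2.95 ± 0.54 (adjusted p = 0.00417). The region with the Fgb start site (chr3:83048676-83056271), which extends into Plrg1, had 58.9, 79.8 and 84.9 nuclear RPM in reprogrammed cells, against 91.8, 97.7 and 87.3 in DDC hepatocytes. It did not overlap between the groups but was not called (-0.32 ± 0.16, adjusted p = 0.184). At Fga the start-site region (chr3:83025520-83026924) fell by 1.30 ± 0.41 (adjusted p = 0.0431) and the downstream region (chr3:83030324-83034868), which reaches past the end of the gene, by 1.45 ± 0.39 (adjusted p = 0.0224).

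Per kb, a region between Fgg and Fga (763 bases wide) had a higher mean level than the Fgg body region (10720 bases wide) in each of the 5 groups. The region between the genes (chr3:83020120-83020882) held a mean of 26.4 nuclear RPM per kb in DDC reprogrammed cells, 11.7 in DDC biliary cells and 43.2 in DDC hepatocytes. It held 15.8 in untreated biliary cells and 50.7 in untreated hepatocytes. The Fgg body region held 4.46 nuclear RPM per kb in DDC reprogrammed cells, 2.07 in DDC biliary cells, 16.3 in DDC hepatocytes, 3.73 in untreated biliary cells and 43.5 in untreated hepatocytes. In untreated hepatocytes the region between the genes had 34.7, 13.2 and 68.1 nuclear RPM, on 7, 8 and 16 reads. In library 2 of that group its level per kb was under that of the Fgg body region. The region between the genes was not called in reprogrammed cells against DDC hepatocytes (-0.71 ± 0.47, limma adjusted p = 0.342).

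In DDC hepatocytes the downstream Fga region had 27.7, 32.1 and 33.6 nuclear RPM, against 129, 162 and 221 in untreated hepatocytes, and fell by 2.39 ± 0.39 (limma adjusted p = 0.00119, edgeR 8.7e-05). The Fga start-site region had 41.4, 29.7 and 33.6 nuclear RPM in DDC hepatocytes, against 69.4, 39.6 and 34.1 in untreated hepatocytes, with overlap (-0.39 ± 0.41, adjusted p = 0.578). Reads of the downstream region per read of the start-site region were 0.670, 1.08 and 1.0 in DDC hepatocytes, against 1.86, 4.08 and 6.50 in untreated hepatocytes. The untreated hepatocyte ratios rest on 26, 98 and 52 downstream reads and 14, 24 and 8 start-site reads. The start-site region in this ratio was singled out after its values were seen. Of these regions the downstream one had the higher mean only in untreated hepatocytes (170.7 against 47.7 nuclear RPM). Of the 40 regions limma called 5 lower and 0 higher, where 2.20% of all regions were lower and 9.94% higher. Of these 5, edgeR called 2, the downstream Fga region and the Fgg body region (-1.33 ± 0.30, edgeR adjusted p = 0.0269), where edgeR called 0.445% of all regions lower and 6.52% higher.

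**Figure D4:**
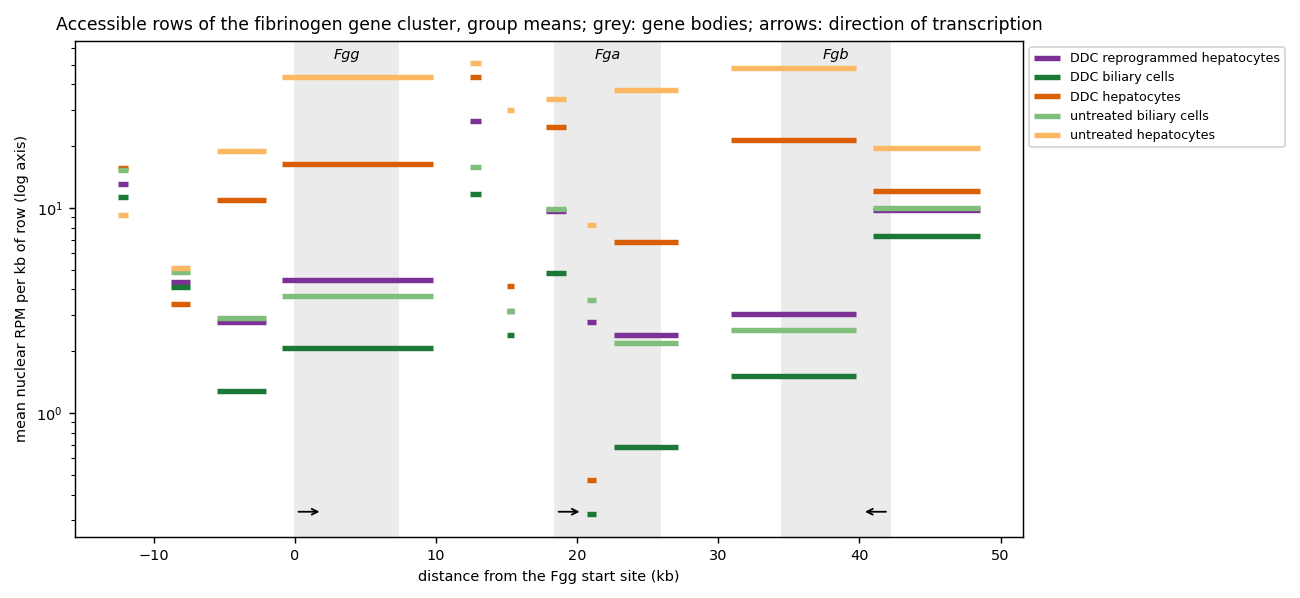
Mean nuclear RPM per kb (vertical log axis) of each region of the fibrinogen cluster, drawn over its extent in kb from the Fgg start site (horizontal axis), for the 5 groups; gene bodies are grey and arrows show transcription. Over the Fgg body the means are 16.3 in DDC hepatocytes and 43.5 in untreated hepatocytes, and between 2.07 and 4.46 in the other groups.

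Outside the cluster, F7 had 1 region, at its start site (chr8:13025390-13026555), so that its values are those of the gene. Both F10 regions, at the start site (chr8:13036084-13039307) and at the end of the gene (chr8:13056550-13057899), were lower in reprogrammed cells than in DDC hepatocytes, by 2.65 ± 0.70 (limma adjusted p = 0.0206) and 2.21 ± 0.68 (adjusted p = 0.0415) on the log2 scale. At F2 the start-site region (chr2:91635004-91637308) fell by 1.82 ± 0.44 (adjusted p = 0.014). At F5 a region at the end of the gene (chr1:164220226-164220734) was called (-2.0 ± 0.51, adjusted p = 0.0168) and the start-site region (chr1:164150994-164153718) was not (-1.49 ± 0.60, adjusted p = 0.106). At F9 a region inside the gene (chrX:60014593-60014908) was called (-2.26 ± 0.53, adjusted p = 0.0122), on 6 reads over the reprogrammed libraries and 35 over the DDC hepatocyte libraries. The F9 start-site region (chrX:59999065-60000560) was not called (-1.54 ± 0.56, adjusted p = 0.0761). The Plg region with the highest mean (chr17:12377705-12380805) fell by 1.92 ± 0.45 (adjusted p = 0.0128).

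Proc was not called as a gene, and 1 of its regions was called higher. The region with the highest mean, in the gene body (chr18:32135824-32140185), had 39.8, 27.5 and 51.1 nuclear RPM in DDC reprogrammed cells, against 47.0, 49.3 and 42.0 in DDC hepatocytes, with overlap (-0.26 ± 0.28, limma adjusted p = 0.578). A region 8375 bases outside the body (chr18:32147177-32148713) had 50.5, 53.4 and 51.5 nuclear RPM in reprogrammed cells, against 41.4, 25.9 and 26.9 in DDC hepatocytes. The groups did not overlap there, and the region was higher by 0.74 ± 0.23 (adjusted p = 0.0435, edgeR 0.0134). Of the 6 fits without 1 library, that without DDC hepatocyte library 1 kept this call. In untreated biliary cells against untreated hepatocytes the outer region was higher by 0.74 ± 0.23 (limma adjusted p = 0.0214, edgeR 0.00097) and the body region lower by limma alone (-1.22 ± 0.28, adjusted p = 0.00304, edgeR 0.255).

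Over the 15 libraries Pearson's r of each gene with the mean of the others was 0.91 to 0.97 for 9 genes and 0.63 for Proc, a description in which the points share groups and depth. The genes outside the set most like its mean were Ttc39c, Cmbl, Fabp12, Pid1 and Smlr1, each with r = 0.99 over the 15 libraries. The summed level of the 10 genes was 423, 384 and 559 nuclear RPM in DDC reprogrammed cells, 255, 328 and 264 in DDC biliary cells and 1197, 1209.5 and 1147 in DDC hepatocytes. It was 542, 329 and 313 in untreated biliary cells, against 1671, 2237 and 2393 in untreated hepatocytes. Within the reprogrammed and both biliary groups, the library with the highest sum was also the one with the highest hepatocyte marker sum. So was DDC hepatocyte library 2, although the clotting sums of that group differed little. Untreated hepatocytes went the other way, as library 3 had the highest clotting sum and the lowest hepatocyte marker sum (4977 nuclear RPM).

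Markers of cell types differed between groups as well. In reprogrammed cells against DDC hepatocytes all 10 hepatocyte markers were called lower (median -2.66), and of 10 biliary markers 8 were higher and 1 lower. Macrophage marker sums were 129 to 154 nuclear RPM in reprogrammed cells and 133 to 185 in DDC hepatocytes (3 of 6 genes had regions), and endothelial sums 124 to 175 and 164 to 187 in the same groups, both with overlap, and 0 of 3 and 1 of 6 genes were called higher. Stellate marker sums were 218 to 241 in reprogrammed cells, against 161 to 189.7 in DDC hepatocytes, without overlap, and 0 of 6 genes were called. Lymphocyte marker sums (3 of 6 genes had regions) were 5.29 to 9.32 in reprogrammed cells, against 0 to 1.71 in DDC hepatocytes, where up to 3 genes were at 0, and 2 of the 3 were called higher. The part of cell mixture in the results was not tested.

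**Figure D5:**
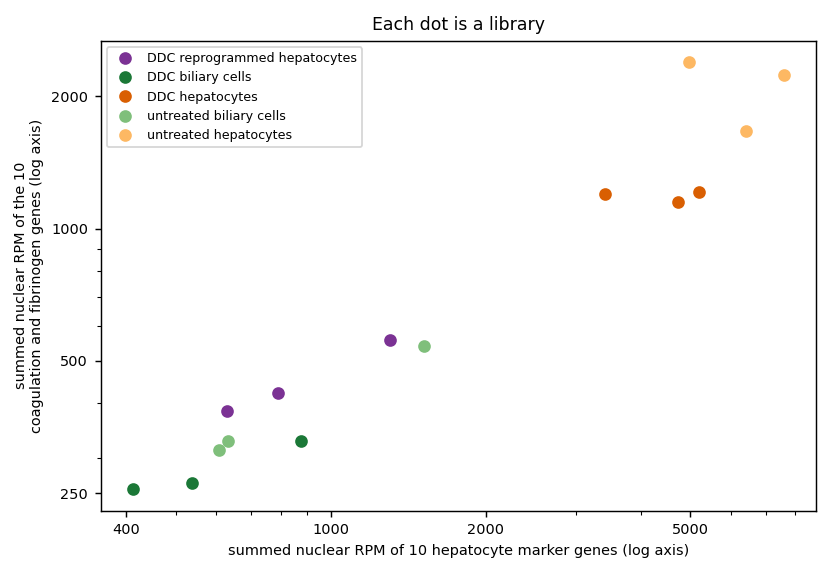
Summed nuclear RPM of the 10 clotting genes (vertical log axis) against that of 10 hepatocyte marker genes (horizontal log axis), 1 dot per library in 5 groups. Untreated biliary library 1 lies at 542 and 1518, beside reprogrammed library 3 at 559 and 1304, while the other untreated biliary libraries have 329 and 313 for the clotting genes.

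Other genes of clotting and fibrin removal moved in both directions. Of a list of 36, 35 were tested. In reprogrammed cells against DDC hepatocytes 10 were lower and 3 higher, where 6.43% of all genes were called lower and 8.01% higher. The share higher was thus near that of all genes. The median was -0.65, against 0.12 for all genes. Among the genes limma called, the largest falls were of Kng1 (kininogen), Serpinc1 (antithrombin, the main inhibitor of thrombin) and F13b (the carrier subunit of the factor that crosslinks fibrin). Kng1 had 4.49, 2.03 and 5.89 nuclear RPM in reprogrammed cells, against 35.4, 29.2 and 34.4 in DDC hepatocytes (-2.80 ± 0.68, limma adjusted p = 0.0119). Serpinc1 had 20.3, 16.9 and 27.5 nuclear RPM in reprogrammed cells, against 124, 142 and 99.9 in DDC hepatocytes (-2.46 ± 0.46, adjusted p = 0.00269). F13b fell by 2.22 ± 0.54 (adjusted p = 0.0129), and the groups did not overlap at any of these genes. Without reprogrammed library 2 the calls of Kng1 and F13b were lost, and that of F13b also without reprogrammed library 1 or DDC hepatocyte library 2 (largest adjusted p = 0.0709). Hrg (histidine-rich glycoprotein) was at -2.50 ± 0.90 and was called by edgeR alone (limma adjusted p = 0.0761, edgeR 0.000263). The genes that rose encode tissue factor (F3), which starts clotting, its inhibitor (Tfpi) and the urokinase receptor (Plaur). F3 had 177, 174 and 177 nuclear RPM in reprogrammed cells, against 98.2, 103 and 83.9 in DDC hepatocytes (0.89 ± 0.16, adjusted p = 0.00211). Plaur was higher by 1.26 ± 0.25 (adjusted p = 0.00405) and Tfpi by 0.80 ± 0.25 (adjusted p = 0.044), a call lost without any 1 of the 6 libraries. Against DDC biliary cells limma called 0 genes of the list and edgeR 3 higher, where edgeR called 1.04% of all genes higher and 1.90% lower.

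In DDC against untreated hepatocytes 3 genes of the list were higher and 3 lower by limma, of which edgeR called 2 and 3. Of all genes limma called 9.66% higher and 3.92% lower, and edgeR called 2.85% higher and 2.14% lower. The share of the list called higher was a little under that of all genes by limma and above it by edgeR. It rests on 3 and 2 genes, too few to set the list apart from all genes. Plat (tissue plasminogen activator) had 46.5, 34.0 and 31.1 nuclear RPM in DDC hepatocytes, against 0, 3.30 and 0 in untreated hepatocytes, where 3.30 stands for 2 reads. Pros1 (protein S, the cofactor of protein C) fell by 1.10 ± 0.22 (adjusted p = 0.00527, edgeR 0.00583) and Serpina5 (the protein C inhibitor) by 2.62 ± 0.57 (adjusted p = 0.00919, edgeR 0.000406). Serpina5 had 14.1, 22.0 and 16.8 nuclear RPM in DDC hepatocytes, against 54.5, 62.8 and 400.2 in untreated hepatocytes, and was at -1.70 without untreated hepatocyte library 3. Plat was also called by limma for the difference between the DDC effects of hepatocytes and biliary cells (2.76 ± 0.70, adjusted p = 0.048), which edgeR did not call (adjusted p = 0.214).

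Of 13 neighbouring genes tested, reprogrammed cells were lower at 1 and higher at 3 than DDC hepatocytes. Among all genes 6.43% were called lower and 8.01% higher. The median was -0.20 for the neighbours and 0.12 for all genes. The gene called lower was Proz, for the clotting cofactor protein Z, which lies 3908 bases from F10 and fell by 1.90 ± 0.53 (limma adjusted p = 0.0247). Its call was kept only without DDC hepatocyte library 3 or reprogrammed library 3. Mcf2l, on the other side of F7, was at 0.45 ± 0.34 (adjusted p = 0.44). Plrg1, 5675 bases from Fgb, was at 0.11 ± 0.80 (adjusted p = 0.956) and Lrat, 103750 bases from Fgg, at -0.55 ± 0.42 (adjusted p = 0.451). The Plrg1 value leaves out the wide region with the Fgb start site, which reaches Plrg1 but was counted to Fgb. Fgf13 (413757 bases from F9), Map3k2 (23519 bases from Proc) and Map3k4 (59813 bases from Plg) were higher, by 1.58 ± 0.43, 0.79 ± 0.16 and 0.73 ± 0.20.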

How the data were processed

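The authors deposited a single table of values per region and library from mm10 alignments; Bowtie2, SAMtools, MACS2 and bedtools were used, per the submitters' processing notes, and the sources used here give no settings, versions or duplicate handling. The deposited values, called TPM, behave as RPM (reads per 1e6 reads in all regions): of values up to 100 reads, 100% were whole multiples of a library's step (tolerance 0.02), evidence that is weaker for DDC reprogrammed library 1, whose step lies near a power of 10. The plan had assumed TPM, and the log2 test was kept. Columns were rescaled to 1e6 reads without the 2 mitochondrial regions (nuclear RPM). Regions (93215 nuclear) were tied to RefSeq protein-coding genes by midpoint, within 50 kb, and summed; 862 lay in more than 1 gene body.

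Groups were compared with limma-trend (limma 3.58.1, R 4.3.3) on log2(nuclear RPM + 1), with all 15 libraries in 1 fit, features of mean 1 or more (16372 genes, 79075 regions) and Benjamini-Hochberg adjustment at 0.05 within each comparison. Errors of differences are SE, those of levels SD. The 95% intervals come from the SE and a normal distribution, and are narrower than the limma test would give. edgeR 4.0.16 quasi-likelihood tests on the recovered reads were an alternative, and called 4955 genes between DDC reprogrammed cells and DDC hepatocytes. Both were tested on simulated counts. There limma gave false calls against untreated hepatocytes at genes with few reads, mostly as higher, so edgeR's result is set beside those comparisons and unadjusted p-values there are too small. Floors of 3 reads cover counting error only. Other alternatives were TMM, the deposited scaling, pseudocounts 0.25 and 5, no filter, thinning to 201705 reads, only the compared groups, a replicate block, narrower gene assignment and leaving out each library. Python 3.11.15 with pandas 2.3.3, numpy 2.4.6 and matplotlib 3.10.9, and the R package data.table (version 1.17.8), were used.

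All 10 genes are named, with for each the region of highest mean, that of smallest p between DDC reprogrammed cells and DDC hepatocytes, and regions called against their gene. Also named are the nearest neighbours and the 5 most alike genes. The genes, lists and tests were chosen with earlier results of these data known. Singled out after their values were seen were the start-site regions of Fga and Fgb, the region between Fgg and Fga, the second F10 region and the genes named from the list of 36. For 1 further gene of that list the values are not reported here.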

Additional observations from a re-analysis of the deposited data

How the results depend on the processing

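The 9 genes lower in DDC reprogrammed cells than in DDC hepatocytes became 3 with reads thinned to the smallest library (1.70% of all genes lower). They became 3 to 8 without 1 library (share of all genes not given). With the deposited scaling F2, Fga and Plg lost their calls (limma adjusted p = 0.0708, 0.103 and 0.216). Under it 2.61% of all genes were lower and 21.9% higher. Genes higher in reprogrammed than in DDC biliary cells, 0 by limma, were 3 by edgeR and 5 with only the compared groups. Between untreated biliary cells and hepatocytes the deposited scaling gave 5 lower and 1 higher (0.959% and 85.3% of all genes), and thinning 6 lower (5.55%). Between DDC and untreated hepatocytes the 4 lower became 0 as deposited, thinned or with only the compared groups, 1 with TMM and 2 with gene-body regions only; 5 were higher as deposited and 1 with TMM (84.1% and 46.9% of all genes). Between DDC and untreated biliary cells 2 were lower by edgeR and 3 with only the compared groups (13.2% of all genes). For the difference of the DDC effects 4 were higher as deposited (62.4% of all genes). Thinning leaves fewer reads and the compared-group fits fewer samples; otherwise the cause was not tested.

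Directions of the values reported turned as follows. Proc was -0.0003 (edgeR), -0.094 (thinned) and -0.21 (gene body only, or within 5 kb) between reprogrammed cells and DDC hepatocytes. It was 0.36 (deposited) and 0.014 (TMM) between DDC biliary cells and hepatocytes, and 1.41 and 0.33 between the untreated ones. In DDC against untreated hepatocytes the deposited scaling gave 1.33 (F5), 0.62 (F9), 0.59 (Fgb), 0.48 (Fgg), 0.66 (Plg) and 1.28 (Proc), TMM gave 0.42 (F5) and 0.36 (Proc), thinning -0.15 (F7 and its region), and leaving out libraries -0.79 to 0.16 (F5). Its regions gave, as deposited, 0.93 and 0.17 (F5 start and end), 0.78 and 0.084 (F9 start and inner), 0.48 (Fgb body), 0.26 (Fgg body), 0.61 (Plg) and 0.94 (Proc body). With TMM they gave 0.057 (F5 start) and 0.034 (Proc body), by edgeR 0.011 (Proc body), and for the outer Proc region -0.35 (thinned) and -0.013 to 0.32 (without 1 library). In DDC against untreated biliary cells F7 was 0.86 (thinned) and -0.53 to 0.13 (without 1 library). F9 was -0.0097 (edgeR), -0.47 (thinned) and -0.44 to 0.84 (without 1 library). F10 was -0.52 (edgeR) and -0.25 to 1.51 (without 1 library), and Proc -0.14 (thinned) and -0.0087 to 0.13. Against the midpoint F2 was 0.17 (deposited), 0.021 (TMM) and -0.27 to 0.24 (without 1 library), F9 0.13 (thinned), and Fga 0.22 (deposited), 0.070 (TMM), 0.0061 (pseudocount 0.25), 1.0 (thinned) and -0.11 to 0.13 (without 1 library). The difference of the DDC effects at Fga was 0.78 (deposited) and 0.021 (TMM), and the genes above 0, 4 of 10, were 10 and 9 in these fits. The Proc body region was 0.19 (deposited) between reprogrammed cells and DDC hepatocytes. Dropping the region that reaches Plrg1, chosen after seeing the data, ended the Fgb call between DDC and untreated hepatocytes (-1.10, adjusted p = 0.174).

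It is not settled whether replicate numbers pair the libraries. Same-numbered libraries of different groups correlated at -0.14 to 0.20 in their deviations, over 0.1 in 8 of 30 pairs. Libraries of different groups and numbers correlated at -0.25 to 0.19, over 0.1 in 4 of 60 pairs. Of 15 libraries 11 correlated best with their own number. With the replicate block 8 genes were lower in reprogrammed cells than in DDC hepatocytes, without F9, and the counts of the other comparisons were 9, 10, 4 and 0 as before. The shares of all genes called with the block are not given here. Depth limits untreated hepatocytes most, where 1 read is worth 1.65 to 4.96 nuclear RPM.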
